A study of Mus musculus with 47 samples.

Results

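Cultured microglia in which both alleles of mouse Apoe encode human APOE3 (E3) were compared with wild-type microglia (WT) after myelin. Every library of these groups was taken by its genotype and treatment labels, 4 E3 and 5 WT libraries, together 9 of the 47 in the series. The 4 E3 and 5 WT libraries left untreated served to show whether a difference was also there without myelin. The cells were primary forebrain microglia of C57BL/6 mice, grown in medium with fetal bovine serum. Myelin was given for 3 h and the cells were collected at 24 h. The E3 mice were Taconic model 1548 and the WT mice were model 000664 of the Jackson Laboratory, so that the human allele and the supplier of the mice cannot be told apart. E4 mice (human APOE4 on both alleles, Taconic model 1549) and mice with disrupted Apoe (KO, Jackson model 002052) gave 5 libraries each after myelin, used only for values set side by side. The labels do not say whether the libraries of a group came from separate animals or cultures, and p-values cover only how the libraries of a group vary, which may be technical variation.

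Apolipoprotein E is the main lipid carrier that glia secrete, and it takes up cholesterol that cells export through ABC transporters. Microglia that engulf myelin break it down in lysosomes and must export, esterify or store the cholesterol they take in. Excess sterol activates the nuclear receptor LXR, which raises exporters such as ABCA1 and ABCG1, and keeps SREBP2 in the endoplasmic reticulum, which lowers transcripts of cholesterol synthesis and uptake.

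Values are scaled TPM, that is TPM rescaled to 1000000 over nuclear protein-coding genes and adjusted by a trimmed mean of log ratios between libraries. Read depth is unknown in TPM. Nuclear coding genes held 15.6 ± 6.04% of TPM in E3 and 19.2 ± 4.43% in WT libraries after myelin (SD, n = 4 and 5), a difference of -3.57 percentage points that did not exceed the spread (two-sided exact permutation p = 0.317). In untreated libraries that share was 11.1% to 16.6% in E3 and 20.5% to 27.3% in WT, without overlap. There, genotype and coding share cannot be told apart. The non-coding gene Gm23935 took 69.4% to 87.5% of TPM in the 18 libraries. The 12 microglia markers summed to 13720 to 18280 scaled TPM in E3 and 13250 to 16760 in WT after myelin, more than markers of any other cell type searched for, with none at 0. Libraries correlated at 0.961 to 0.990 within a group and at 0.921 to 0.946 between E3 and WT after myelin (Pearson r of log2 levels over genes, a description).

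Apoe itself checked the labels. E3 libraries after myelin held 107, 144, 244 and 142 scaled TPM of mouse Apoe, and WT libraries held 85231, 71564, 74818, 58570.2 and 64019.8. The groups lay far apart, with a log2 difference of -8.84 (two-sided exact permutation p = 0.00794, the smallest that 126 arrangements allow). The table lists mouse genes, and the level of human APOE was not analysed here. Mouse Apoe lies at chromosome 7 from 19696109 to 19699188 on the minus strand (GRCm38).

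Against WT after myelin, E3 cultures had lower transcripts of cholesterol synthesis and of interleukin 1 and other inflammatory genes. Transcripts of complement and Fc receptors and of the cell cycle were lower too. Those of the exporter Abcg1, of several lysosomal enzymes and of astrocyte markers were higher. Which cells of the cultures carried these differences was not tested. Limma called 3354 of 10075 tested genes (adjusted p under 0.05), 1448 of them higher in E3 (14.4%) and 1906 lower (18.9%). The counts of each gene list below are to be read beside these shares. More than 2-fold differences counted 439 higher and 267 lower genes. Every E3 library was above every WT library for 976 of the tested genes (9.69%) and below for 1291 (12.8%), whether or not limma called them. The median log2 fold change over all tested genes was -0.05. The split of directions depends on the scaling: with the coding total alone 1805 genes were higher and 1182 lower, and with the coding total without Apoe, which is abundant in WT, 1327 were higher and 2049 lower. A fit of all 47 libraries, 9 of them from mice with 1 disrupted Apoe allele (Het), called 1791.

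**Figure D1:**
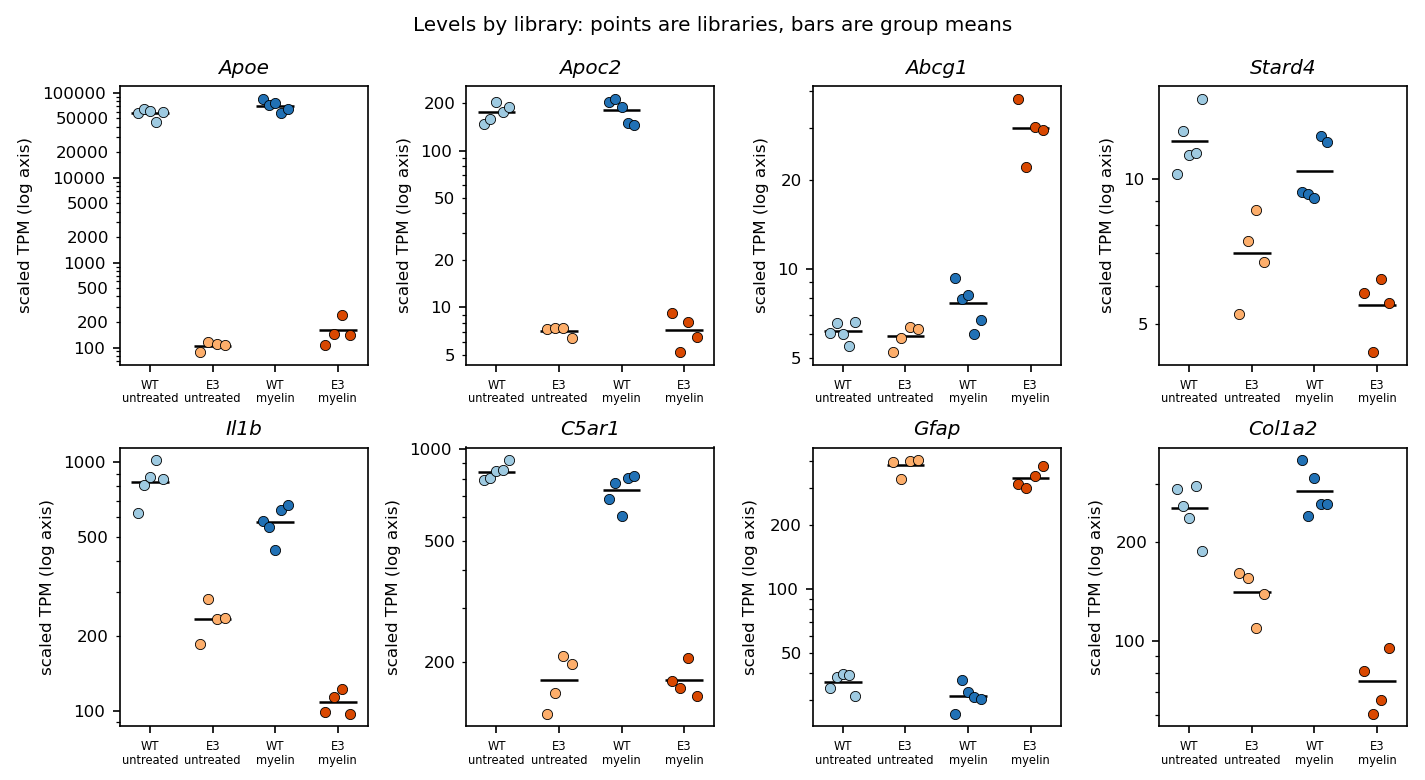
Levels of 8 genes in scaled TPM on log axes, 1 point per library and a bar at each group mean, for WT and E3 libraries untreated and after myelin. After myelin the E3 and WT libraries do not overlap for any of the 8, and Abcg1 alone among them has E3 and WT libraries at a like level when untreated.

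Of the 10 largest increases 3 were in genes of the astrocyte marker list, Slc1a3, Aqp4 and Gfap. Gfap, the intermediate filament of astrocytes, was at 312, 299, 341 and 379.8 scaled TPM in the E3 and 25.7, 36.98, 32.6, 30.9 and 30.2 in the WT libraries after myelin. Every E3 library was above every WT library, and the log2 fold change was 3.37 ± 0.10 (± SE here and below, limma adjusted p = 1.25e-14). The water channel Aqp4 ranged over 129 to 163 scaled TPM in E3 and 9.21 to 13.7 in WT (3.50 ± 0.13), and the glutamate transporter Slc1a3 over 81.4 to 112 scaled TPM in E3 and 5.74 to 9.27 in WT (3.52 ± 0.15). Igfbp2, which binds insulin-like growth factors, had the largest increase of the tested genes, 4.54 ± 0.23, with 318, 518, 658 and 419 scaled TPM in E3 and 25.03, 14.9, 20.98, 12.02 and 25.3 in WT. Among the 10 largest were also the metallothionein Mt3 (4.13 ± 0.28), the sodium pump regulator Fxyd1 (3.94 ± 0.30), the glutamine transporter Slc38a3 (3.80 ± 0.14), the matricellular protein gene Wisp2 (3.70 ± 0.15), the astrocyte membrane protein gene Mlc1 (3.60 ± 0.13) and 1500015O10Rik (3.53 ± 0.16). Their E3 and WT libraries did not overlap.

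Of 15 astrocyte markers 11 were tested, of which 10 were higher in E3 and 1, the gap junction gene Gja1, was lower (-0.38 ± 0.12, not called with the coding total alone), with a median of 2.60. Untreated cultures had the same counts and a median of 2.71. Summed over the list, astrocyte markers came to 1133 to 1314 scaled TPM in E3 and 218.1 to 353.8 in WT libraries after myelin, and to 1211 to 1468 and 187 to 245.8 untreated. Gjb6, an astrocyte connexin, had means under 1 in both groups. The 4 tested neuron markers, of 10 listed, were also higher, among them the growth-cone protein gene Stmn2 (2.28 ± 0.16, 16.3 to 20.9 scaled TPM in E3 and 2.00 to 4.25 in WT) and the microtubule protein gene Map2 (1.65 ± 0.21). Summed neuron markers were 54.9 to 71.7 scaled TPM in E3 and 19.3 to 31.1 in WT, and the defining neuron genes Rbfox3, Snap25 and Syt1 had means under 1 in both. Olig1, a transcription factor of the oligodendrocyte lineage that astrocyte precursors also use, ranged over 21.4 to 29.7 scaled TPM in E3 and 1.25 to 2.63 in WT (3.19 ± 0.16). Cnp of myelinating cells was at 0.38 ± 0.08, and the progenitor marker Cspg4 was lower (-0.47 ± 0.13). The call of Cspg4 was lost in 2 of 29 settings (limma adjusted p up to 0.0542), among them leaving out E3 myelin replicate 2 (adjusted p = 0.0503). The other 2 tested markers were not called. Summed oligodendrocyte lineage markers were 125.2 to 139.9 scaled TPM in E3 and 93.8 to 110 in WT, with Mog and Sox10 under 1 in both.

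Transcripts of fibroblasts and pericytes were lower in E3 after myelin. Of 16 such markers 15 were tested, and 13 were lower and none higher, with a median of -1.32. Dcn, a collagen-binding proteoglycan, was at 4.52, 5.66, 7.21 and 7.85 scaled TPM in E3 and 116, 115, 116, 136 and 95.6 in WT (-4.01 ± 0.16, adjusted p = 4.32e-13). The collagen genes Col3a1 (-2.19 ± 0.24) and Col1a2 (-1.90 ± 0.16) and the calcification inhibitor Mgp (-1.98 ± 0.18) followed, all without overlap of the groups. The list's median was -0.64 in untreated cultures, where 9 members were lower and 2 higher, beside 30.4% and 24.8% of all genes. Its summed level was 2808 to 3871 scaled TPM in E3 and 4792 to 7095 in WT after myelin, without overlap, but 4551 to 5546 and 4486 to 5532 untreated. Of 8 endothelial markers 4 were tested and 3 were lower, the adhesion molecules Pecam1 (-1.24 ± 0.15), Cdh5 (-1.23 ± 0.13) and Esam (-1.11 ± 0.17), at summed levels of 28.1 to 35.4 in E3 and 42.4 to 72.6 in WT. Cldn5 and Tek, which define that cell type, had means under 1 in both groups.

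Of the 12 microglia markers, all tested, 3 were higher in E3, 2 lower and 7 not called, with a median of -0.22 beside -0.05 over all genes. The share lower was near the 18.9% of all tested genes. Leaving out each library gave 2 to 3 higher and 2 to 4 lower microglia markers. The coding total without Apoe gave 3 higher and 4 lower, and the fit of all 47 libraries 0 higher and 2 lower. Border macrophage markers were tested for 3 of 10 genes, and all 3 were lower in E3. Mrc1, the mannose receptor, was at 4.54, 4.50, 5.42 and 4.19 scaled TPM in E3 and 24.2, 18.96, 15.2, 24.04 and 26.5 in WT (-1.99 ± 0.13), Pf4 at -0.69 ± 0.13 and Ms4a7 at -0.28 ± 0.10. The call of Ms4a7 was lost in 12 of 29 settings, among them leaving out E3 myelin replicate 2, 3 or 4 or WT myelin replicate 1, 2, 4 or 5 (adjusted p up to 0.0912) and the coding total alone. Lyve1, Ccr2, Cd163 and Clec10a had means under 1 in both groups. In the list of blood leukocyte markers only S100a8 passed the filter, and it was not called (-0.38 ± 0.26). In bulk RNA, fewer cells of a type and less RNA of each such cell cannot be told apart. The part of these other cell types in the results below was not tested.

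**Figure D2:**
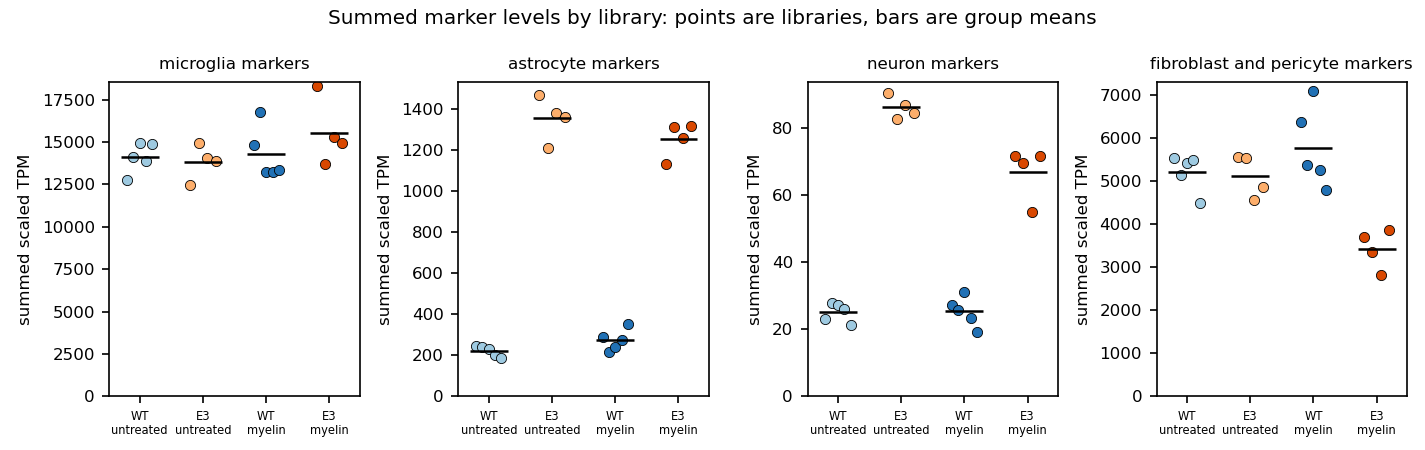
Summed scaled TPM of marker genes, 1 point per library and a bar at each group mean, on axes from 0. Microglia markers overlap between all groups, astrocyte and neuron markers are higher in every E3 library than in every WT library of the same treatment, and the summed fibroblast and pericyte markers of E3 and WT overlap untreated but not after myelin.

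Apoc1 and Apoc2, the small apolipoprotein genes that neighbour Apoe, were lower in E3. Apoc2, an activator of lipoprotein lipase whose start coordinate minus that of Apoe is -24.53 kb, was at 9.25, 5.18, 8.03 and 6.46 scaled TPM in E3 and 205, 214, 189, 149 and 145 in WT after myelin. No E3 library came near the lowest WT library, and the log2 fold change was -4.47 ± 0.14 (limma adjusted p = 1.91e-14). Apoc1, at -6.628 kb, was at 49.3, 34.1, 31.4 and 48.8 in E3 and 173, 187, 117, 85.1 and 124 in WT (-1.70 ± 0.19, adjusted p = 5.34e-07), again without overlap. Both were also lower in untreated E3 (-4.43 ± 0.14 and -1.76 ± 0.19). Within 2 Mb of the start of Apoe 30 other genes were tested, of which 3 were higher (10.0%) and 9 lower (30.0%), beside 14.4% and 18.9% over all genes, with a median of -0.05. The higher count was 5 without WT myelin replicate 1 or 3, 6 without WT myelin replicate 5, 8 in the fit of 38 libraries without Het and 0 with a filter at 20 scaled TPM, on either side of the share over all genes. Those with the next largest differences were the kinase gene Dmpk (1.24 ± 0.13), the adhesion receptor gene Pvr (-1.05 ± 0.09) and the reticulon gene Rtn2 (0.96 ± 0.16), each without overlap of the groups. Tomm40, at 5.204 kb on the other side, was not called (0.74 ± 0.30).

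Among genes of cholesterol efflux and LXR targets, Abcg1 had the largest increase in E3. Abcg1 passes cholesterol from the cell to lipoprotein particles and lies at chromosome 17 from 31057675 to 31117988 (GRCm38). After myelin it was at 37.7, 22.1, 30.3 and 29.5 scaled TPM in E3 and 9.35, 7.93, 8.18, 6.02 and 6.73 in WT. Every E3 library was above every WT library, and the log2 fold change was 1.83 ± 0.13 (limma adjusted p = 1.89e-09). Untreated libraries were at 5.22, 5.81, 6.34 and 6.28 in E3 and 6.05, 6.56, 6.04, 5.46 and 6.60 in WT (-0.05 ± 0.13, adjusted p = 0.783). The gap between the genotypes was 1.88 ± 0.19 wider on the log2 scale after myelin (adjusted p = 6.20e-05), a call that the fit of all 47 libraries did not make (adjusted p = 0.168) and the other 27 alternatives did.

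All 16 genes of that list were tested, and 5 were higher, 3 lower and 8 not called (median 0.08). The share lower was near the 18.9% of all tested genes. The other higher members were the desaturase gene Scd2 (0.76 ± 0.12), the ubiquitin ligase gene Mylip (0.59 ± 0.09), the small GTPase gene Arl4c (0.43 ± 0.11) and the phosphodiesterase gene Smpdl3a (0.35 ± 0.10). Mylip was at 28.03, 25.01, 31.1 and 26.2 scaled TPM in E3 and 18.7, 18.9, 16.6, 17.4 and 18.2 in WT, without overlap. The lower members were Apoc1, Apoc2 and the transporter gene Abca9 (-0.96 ± 0.19). Abca1, the exporter that loads apolipoproteins with cholesterol, was at -0.24 ± 0.15 after myelin and was not called. In untreated E3 Abca1 was lower (-1.15 ± 0.15). Its gap also differed (0.92 ± 0.22, limma adjusted p = 0.0442), a call that the fit of all 47 libraries did not make. Whether other settings kept that call was not examined. The receptor genes Nr1h3, Nr1h2, Rxra and Rxrb were not called, nor was the phospholipid transfer protein gene Pltp (0.17 ± 0.11).

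Transcripts of cholesterol synthesis and uptake were lower in E3 after myelin. Of 26 genes 24 were tested, and 13 were lower, none higher and 11 not called, with a median of -0.42 beside -0.05 over all genes. Stard4, a sterol transfer protein gene, was at 5.79, 4.36, 6.20 and 5.51 scaled TPM in E3 and 9.39, 9.28, 9.11, 12.3 and 11.9 in WT. The highest E3 library was below the lowest WT library (-0.81 ± 0.14, limma adjusted p = 1.37e-04). Srebf2, which encodes the regulator SREBP2, was at -0.41 ± 0.07. In the mevalonate pathway 4 of 8 genes were lower, among them Mvd (20.6, 21.2, 18.3 and 17.7 in E3, 28.4, 33.1, 34.3, 34.5 and 31.4 in WT, -0.71 ± 0.09), Idi1 (-0.56 ± 0.13) and Fdps (-0.51 ± 0.08). Hmgcs1, an early enzyme of that pathway, was at -0.08 ± 0.13 and was not called. From squalene on, 6 of 11 were lower, among them Cyp51 (-0.60 ± 0.14), Msmo1 (-0.53 ± 0.10) and Sqle (-0.41 ± 0.09). In untreated cultures 11 members were lower and 4 higher (median -0.21), where 30.4% of all genes were lower and 24.8% higher. The fit of all 47 libraries called 5 lower.

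To show the sequence in front of these genes, the RefSeq promoter windows (250 bases before to 50 after the start, GRCm38.p6) of the 18 tested members that have one were searched on both strands for a pair of motifs that do not overlap each other. CCAAT, the box that binds the SREBP partner NF-Y, occurred in windows of 16 of the 18 genes, including all 8 that were called lower, beside 37.4% of all 32851 windows and 43.3% of the tested genes with a window. CACCCCAC, the core of a sterol regulatory element, occurred in 2 of the 18 (Hmgcs1 and Acat2, neither called) and in none of the 8, beside 2.87% of all windows. A match is only these letters in this window. The windows of Mvd (chr8:122443373-122443672, minus strand), Idi1 (chr13:8885356-8885655, plus strand) and Srebf2 (chr15:82147019-82147318, plus strand) are shown as examples from genes called lower, with CCAAT or its complement ATTGG in capitals.
Mvd: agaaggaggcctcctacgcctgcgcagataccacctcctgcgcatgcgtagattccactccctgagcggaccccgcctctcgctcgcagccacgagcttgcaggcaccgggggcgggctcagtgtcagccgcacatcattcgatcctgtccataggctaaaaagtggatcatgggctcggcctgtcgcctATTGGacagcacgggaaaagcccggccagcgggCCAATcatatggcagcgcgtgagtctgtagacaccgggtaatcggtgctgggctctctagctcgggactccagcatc
Idi1: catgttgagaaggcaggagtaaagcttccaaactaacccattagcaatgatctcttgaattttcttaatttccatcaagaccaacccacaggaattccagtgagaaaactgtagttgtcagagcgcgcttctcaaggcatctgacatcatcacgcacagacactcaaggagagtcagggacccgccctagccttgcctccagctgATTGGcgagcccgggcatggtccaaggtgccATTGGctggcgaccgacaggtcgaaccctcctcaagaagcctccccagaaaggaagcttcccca
Srebf2: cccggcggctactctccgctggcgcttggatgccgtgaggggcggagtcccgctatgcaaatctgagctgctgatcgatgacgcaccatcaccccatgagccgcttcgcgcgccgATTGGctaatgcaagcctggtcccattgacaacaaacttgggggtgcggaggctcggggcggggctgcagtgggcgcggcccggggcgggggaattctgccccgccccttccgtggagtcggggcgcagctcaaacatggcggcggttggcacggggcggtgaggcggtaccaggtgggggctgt

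Of 21 genes of fatty acid synthesis and lipid droplets 6 were higher, 3 lower and 12 not called (median 0.07). The share higher was above the 14.4% of all tested genes, and the share lower was below their 18.9%. The desaturase gene Fads2 was at 97.9, 100.8, 95.5 and 109 scaled TPM in E3 and 22.7, 24.8, 27.4, 26.9 and 25.04 in WT, a difference of 1.95 ± 0.08 without overlap. Scd1 was at 1.22 ± 0.13 and the fatty acid binding protein genes Fabp3 and Fabp4 at 0.70 ± 0.11 and 0.63 ± 0.12. Fatty acid synthase, Fasn, was lower (20.5, 12.8, 17.6 and 18.3 in E3, 28.9, 22.7, 32.1, 26.2 and 26.5 in WT, -0.64 ± 0.13), as were Acly (-0.45 ± 0.12), which supplies its acetyl-CoA, and the droplet protein gene Hilpda (-0.50 ± 0.11). Plin2, which coats lipid droplets, was at 0.17 ± 0.08 and was not called. Fads2, Scd1 and Scd2 were lower in KO than in WT (-1.51, -1.33 and -0.75). Of 8 fatty acid synthesis genes 6 were lower in KO and 1 higher. Astrocyte markers (median -0.80) and fibroblast and pericyte markers (median -3.66) were lower in KO too, and their part was not tested.

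Of 46 lysosomal genes 45 were tested, and 15 were higher in E3, 5 lower and 25 not called (median 0.12). The share lower was below the 18.9% of all tested genes. Lipid hydrolases and their activators held 7 of the 15. Hexa, a subunit of beta-hexosaminidase, was at 1364, 1087, 1196 and 1127 scaled TPM in E3 and 904, 1009, 792, 869 and 916 in WT (0.41 ± 0.09, adjusted p = 0.00123), without overlap. The galactosidase gene Glb1 (0.33 ± 0.10), the sphingomyelinase gene Smpd1 (0.53 ± 0.08) and the saposin precursor Psap (0.33 ± 0.10) were higher as well. The protease gene Ctsd was at 24847, 16353, 21104 and 19647 in E3 and 13060.3, 14346, 12778, 12139 and 12306 in WT (0.65 ± 0.10), and the membrane protein gene Lamp1 at 0.95 ± 0.16. Npc1, which passes cholesterol out of the lysosome, was also higher (0.36 ± 0.10). The 5 lower members were the cathepsin genes Ctsk (-1.63 ± 0.10), Ctsc (218, 224, 313 and 224 in E3, 554, 577, 409, 691 and 707 in WT, -1.25 ± 0.14) and Ctsl (-0.42 ± 0.10), the proton pump subunit gene Atp6v0d2 (-0.95 ± 0.14) and the regulator Tfe3 (-0.37 ± 0.10). The other 11 proton pump genes were not called. Untreated E3 had 6 members higher and 21 lower (median -0.21), where 24.8% of all genes were higher and 30.4% lower. The fit of all 47 libraries called 4 higher and 3 lower.

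Genes of the disease-associated microglial state, which appears around plaques and dying myelin, split. Of 22 genes 21 were tested, 9 higher, 6 lower and 6 not called (median 0.20). The cysteine protease inhibitor gene Cst7 was at 47.7, 38.4, 39.2 and 40.7 scaled TPM in E3 and 14.5, 16.7, 9.21, 13.7 and 12.8 in WT (1.58 ± 0.13, adjusted p = 1.09e-08), without overlap. Lgals3 (0.66 ± 0.09), Igf1 (0.57 ± 0.10) and the glycoprotein gene Gpnmb (2173, 2038, 2559.5 and 2141 in E3, 1278, 1709.5, 1334, 1791 and 1702 in WT, 0.52 ± 0.11) were also higher. The chemokine gene Ccl6 went the other way, at 31.6, 28.7, 30.2 and 28.5 in E3 and 144, 154, 127, 144 and 140.0 in WT (-2.21 ± 0.11), as did the integrin gene Itgax (-1.31 ± 0.13), the colony-stimulating factor gene Csf1 (-0.94 ± 0.16), Axl (-0.60 ± 0.15), Spp1 (-0.43 ± 0.09) and Apoc1. Trem2, the lipid receptor of this state, was at 0.44 ± 0.13 with overlapping groups. Its call was lost in 3 of 29 settings (limma adjusted p up to 0.16), among them leaving out E3 myelin replicate 1 (adjusted p = 0.0674). The fit of all 47 libraries called 3 higher and 5 lower.

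In the homeostatic list 18 of 20 genes were tested, and 4 were higher, 1 lower and 13 not called (median -0.12). The lower count was 3 without E3 myelin replicate 1, 2 without E3 myelin replicate 3, without WT myelin replicate 1, 2, 3 or 5, without E3 untreated replicate 1 or WT untreated replicate 1 or 4, and 4 with the coding total without Apoe. Csf1r, the receptor that microglia need to survive, was the lower one, at 462, 315, 463 and 397 scaled TPM in E3 and 782, 654, 633, 784 and 859 in WT (-0.86 ± 0.12, adjusted p = 1.64e-05). The cystatin gene Cst3 (0.44 ± 0.12) and Olfml3 (0.33 ± 0.09) were among the higher genes. Tmem119 (-0.27 ± 0.14), Cx3cr1 (-0.21 ± 0.13) and P2ry12 (-0.54 ± 0.21), the usual surface markers, were not called.

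Inflammatory genes were mostly lower in E3 after myelin. Of 32 genes 29 were tested, and 16 were lower, 4 higher and 9 not called (median -0.47). Il1b, the cytokine interleukin 1 beta, was at 99.4, 113, 122 and 97.4 scaled TPM in E3 and 579, 547, 445, 640.2 and 673 in WT. The highest E3 library was at 122 and the lowest WT library at 445 (-2.40 ± 0.14, limma adjusted p = 6.63e-11). Il1a was at -1.57 ± 0.16, the receptor antagonist Il1rn at -1.12 ± 0.19, Tnf at -0.53 ± 0.13 and Csf1 at -0.94 ± 0.16, so that 6 of 8 tested cytokines were lower. Il6 was low in both groups, at 0.354, 4.09, 1.24 and 2.26 in E3 and 11.9, 8.36, 9.39, 11.4 and 7.51 in WT (-1.99 ± 0.28). Ptgs2, the inducible cyclooxygenase, was at 25.3, 37.6, 50.5 and 37.7 in E3 and 122, 81.1, 127, 167 and 142 in WT (-1.73 ± 0.18, adjusted p = 2.46e-07). The inhibitors of NF-kB Nfkbia (-0.66 ± 0.12) and Nfkbiz (-0.92 ± 0.17) and the chemokine genes Cxcl2 (-0.78 ± 0.16), Ccl7 (-0.76 ± 0.14) and Ccl12 (-0.91 ± 0.20) were lower too. Untreated cultures had 14 members lower and 5 higher (median -0.36), where 30.4% of all genes were lower and 24.8% higher.

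The 4 higher members, a share near the 14.4% of all tested genes, were Lcn2, Cxcl10, Saa3 and Ccl5. Lcn2, an iron-sequestering protein that reactive astrocytes also make, was at 365, 571, 384 and 386 scaled TPM in E3 and 39.97, 59.05, 57.6, 53.8 and 43.8 in WT (3.04 ± 0.15), and the interferon-induced chemokine gene Cxcl10 at 1.07 ± 0.20. Of 24 tested interferon-stimulated genes 3 were higher, 3 lower and 18 not called (median -0.15), shares below the 14.4% and 18.9% of all tested genes. Ifit3 (0.92 ± 0.28) and Gbp2 (0.71 ± 0.17) were the largest of those higher, and Irf7 (-0.66 ± 0.23) and Dhx58 (-0.45 ± 0.12) of those lower. Without E3 myelin replicate 3, and likewise without WT myelin replicate 3, 5 were lower. The call of Irf7 was lost in 11 of 29 settings, among them leaving out E3 myelin replicate 1, 2 or 4 or WT myelin replicate 2, 4 or 5 (adjusted p up to 0.107) and the coding total alone. In antigen presentation 4 of 15 tested genes were higher and none lower (median 0.09), the class II genes H2-Ab1 (0.91 ± 0.21) and H2-DMa (0.53 ± 0.10), and H2-D1 (0.33 ± 0.08) and Tap2 (0.29 ± 0.10) of class I. With the coding total alone 7 were higher, and the call of Tap2 was lost in 10 of 29 settings, among them leaving out E3 myelin replicate 1, 2 or 4 or WT myelin replicate 1, 4 or 5 (adjusted p up to 0.122).

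Receptors for complement and antibodies were lower in E3. Of 28 genes of phagocytosis and complement, all tested, 14 were lower, 4 higher and 10 not called (median -0.35). The share higher was near the 14.4% of all tested genes. The higher count was 2 without E3 myelin replicate 1, 2 or 3, without WT myelin replicate 2 or 3, or with the coding total without Apoe, and 1 in a fit of the 9 libraries after myelin alone. C5ar1, the receptor of the complement peptide C5a, was at 172, 164, 205 and 155 scaled TPM in E3 and 684, 773, 604, 803 and 814 in WT (-2.07 ± 0.12, limma adjusted p = 5.23e-11). No E3 library reached the WT range. The complement receptor subunit gene Itgam (-0.98 ± 0.16), the C3a receptor gene C3ar1 (-0.36 ± 0.10) and the factor B gene Cfb (-0.84 ± 0.20) were lower too, whereas C3 was higher (0.47 ± 0.16). Of 6 genes of Fc receptor signalling 4 were lower: Fcgr3 (396, 345, 410.2 and 393 in E3, 709.6, 844, 587, 662 and 678 in WT, -0.84 ± 0.10), Fcgr4 (-0.84 ± 0.12), Fcgr2b (-0.74 ± 0.13) and Fcgr1 (-0.62 ± 0.10). Scavenger and debris receptors were mixed, with Mrc1, Axl, Msr1 (-0.39 ± 0.14), Mfge8 (-0.40 ± 0.08) and Scarb1 (-0.34 ± 0.08) lower and Cd68 (0.37 ± 0.09), Stab1 (0.43 ± 0.13) and Gas6 (0.76 ± 0.29) higher. Cd36, which binds oxidised lipoproteins, was at -0.08 ± 0.17 and was not called. The fit of all 47 libraries called 8 lower and 0 higher. Without myelin 18 members of the list were lower in E3 and 3 higher (median -0.515), where 30.4% of all genes were lower and 24.8% higher.

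Cell cycle transcripts were lower in E3 after myelin. Of 25 genes 24 were tested, and 20 were lower, none higher and 4 not called (median -0.58). Rrm1, a subunit of ribonucleotide reductase, was at 25.5, 21.98, 30.9 and 31.8 scaled TPM in E3 and 48.5, 46.2, 53.1, 52.7 and 52.7 in WT (-0.87 ± 0.09, adjusted p = 3.60e-07). The thymidylate synthase gene Tyms (-0.83 ± 0.15) and the mitotic kinase genes Plk1 (16.1, 17.02, 14.998 and 22.6 in E3, 39.02, 26.9, 39.5, 32.5 and 27.8 in WT, -0.87 ± 0.14) and Bub1 (-0.83 ± 0.16) were lower as well. In all, 10 of 11 replication and 10 of 13 mitosis genes were lower. Untreated cultures had 10 members lower and none higher (median -0.22), where 30.4% of all genes were lower and 24.8% higher. Fibroblast and pericyte markers, lower in the same libraries, moved with these genes, and their part was not tested.

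Apoe, Apoc2 and Dcn were joined among the 10 largest decreases by genes of proteases, growth factors and other functions. Mmp3, a matrix protease, was at 8.56, 15.2, 10.2 and 7.84 scaled TPM in E3 and 320.0, 302, 380.2, 371 and 315 in WT (-4.92 ± 0.15, limma adjusted p = 1.25e-14). Igf2, a growth factor of mesenchyme and meninges, was at 3.11, 6.23, 3.80 and 8.48 in E3 and 124, 108, 119, 105 and 82.1 in WT (-4.15 ± 0.21). Serpinb2 (-3.44 ± 0.17), an inhibitor of plasminogen activators, the lipocalin gene Apod (-3.42 ± 0.17), the steroid dehydrogenase gene Akr1c18 (-3.08 ± 0.17) and the smooth muscle actin gene Actg2 (-2.55 ± 0.13) were also among them. The protease inhibitor gene Timp1 was at 588, 679, 549 and 718 in E3 and 3829, 3963, 5250.3, 3408 and 2600.2 in WT (-2.56 ± 0.16). In the list of growth factors and matrix turnover 23 of 24 genes were tested, 5 higher, 9 lower and 9 not called (median -0.22). Ereg, an EGF receptor ligand of activated macrophages, was lower (-2.04 ± 0.13), as were Mmp2 (-1.44 ± 0.08), Mmp9 (-1.62 ± 0.23), Mmp13 (-1.35 ± 0.18) and the urokinase receptor gene Plaur (-1.43 ± 0.09). Vegfb (1.25 ± 0.17), Pdgfb (0.92 ± 0.15), Igf1 and Timp2 (0.63 ± 0.17) were higher beside Igfbp2. Fibroblast markers, at a median of -1.32, moved with the lower genes, and their part was not tested.

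Stress and metabolic genes showed smaller differences. In the NRF2 list of 23 genes 5 were higher and 9 lower (median 0.04). The glutathione transferase gene Gstm1, high in astrocytes, was at 408, 412, 297 and 394 scaled TPM in E3 and 87.04, 121, 119.6, 111 and 89.3 in WT (1.83 ± 0.11). The quinone reductase gene Nqo1 (-1.39 ± 0.13) and the cystine importer gene Slc7a11 (-1.14 ± 0.14) were lower, and Gclm (0.98 ± 0.21), of glutathione synthesis, was higher. Among 26 genes of the amino acid and endoplasmic reticulum stress response 5 were higher and 9 lower (median -0.08). Ddit3 (0.68 ± 0.11), Sdf2l1 (0.57 ± 0.09) and Trib3 (0.53 ± 0.16, lost without E3 myelin replicate 2 at adjusted p = 0.0606) were higher, the serine synthesis gene Phgdh was lower (-1.12 ± 0.13), and 6 of 12 chaperones, such as Hsp90b1 (-0.31 ± 0.06), were lower. With the coding total alone 5 of the 26 were lower.

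For respiration the share of genes higher was below the 14.4% of all tested genes, with 4 of 31 higher and none lower (median 0.15), Ndufa13 (0.45 ± 0.14), Ndufs6 (0.40 ± 0.14), Cox4i1 (0.35 ± 0.12) and Atp5g1 (0.33 ± 0.12). That count rested on single libraries, being 0 without E3 myelin replicate 2, 1 without E3 myelin replicate 1 or WT myelin replicate 4 or 5, and 9 without E3 myelin replicate 3 or WT myelin replicate 2, and it was 14 with the coding total alone and 0 in the fit of all 47 libraries. Untreated cultures had 26 of 31 higher, where 24.8% of all genes were. Of 21 glycolytic and hypoxia genes Pfkp was higher (0.76 ± 0.10) and Slc16a3 (-0.59 ± 0.13), Ldha (-0.46 ± 0.09) and Slc2a1 (-0.42 ± 0.09) were lower, and in the fit of all 47 libraries none of the last 3 was. The shares higher and lower in this list were below the 14.4% and 18.9% of all tested genes. With the coding total alone 5 of the 21 were higher and 3 lower, with library weights 4 were higher and 5 lower, in the fit of 38 libraries 3 were higher, and without E3 myelin replicate 2 or WT myelin replicate 2 or 3, 2 were higher. Of 27 ribosomal protein genes only Rpl5 was called (-0.36 ± 0.10).

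**Figure D3:**
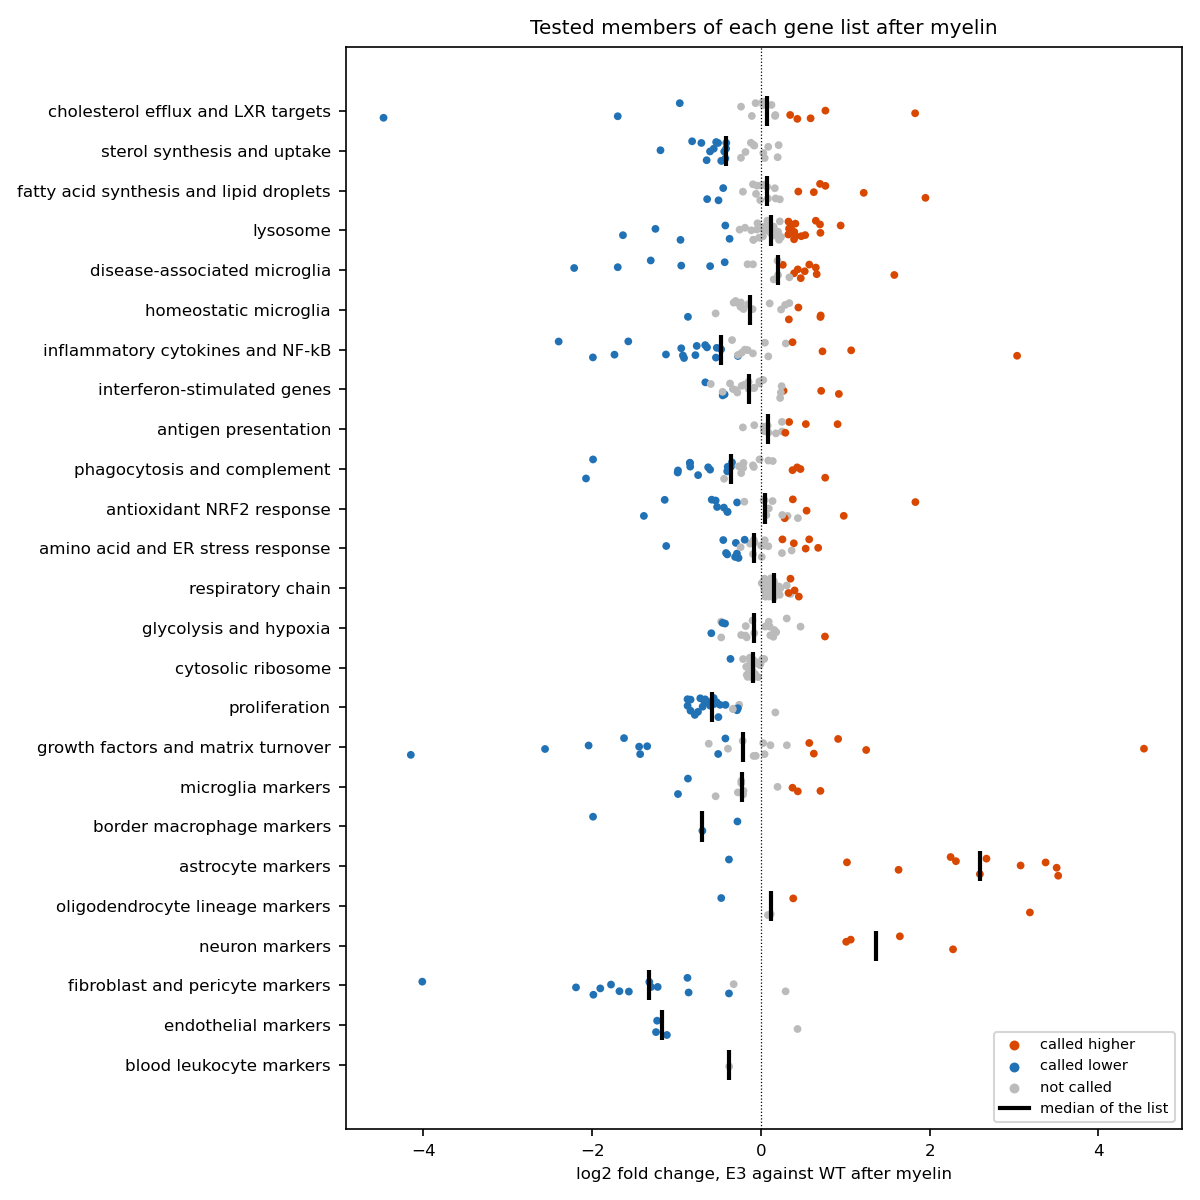
Log2 fold change in E3 against WT after myelin of each tested member of the 25 gene lists, 1 point per gene, orange where limma called it higher, blue where lower and grey where not called, with a black bar at the median of the list. Astrocyte markers lie to the right of 0 with a median of 2.60, and the sterol, proliferation, fibroblast and endothelial lists lie mostly to the left.

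In the fit of all 47 libraries several of these lists had fewer calls. It called 4 higher and 1 lower for fatty acid synthesis and lipid droplets, 1 higher and 1 lower for the homeostatic list, 2 higher and 11 lower for inflammatory genes, 1 higher and 0 lower for interferon-stimulated genes and 1 higher and 0 lower for antigen presentation. It called 2 higher and 6 lower for the NRF2 list, 2 higher and 1 lower for the amino acid and endoplasmic reticulum stress response, and 0 higher and 1 lower for border macrophage markers. Proliferation had 14 lower and fibroblast markers 12.

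Most differences after myelin were also there in untreated cultures, which are other libraries. Without myelin limma called 2500 genes higher in E3 (24.8%) and 3061 lower (30.4%). In these libraries the coding shares of E3 and WT did not overlap, and the part of this was not tested. Of the 3354 genes called after myelin 2607 were called in the same direction untreated (77.7% of the former and 46.9% of the latter), and 25 in the opposite one. The difference between both gaps was tested as an interaction. It was called for 151 genes, with 69 gaps more positive after myelin (0.685%) and 82 more negative (0.814%), and 2355 genes had an unadjusted p under 0.05. Of 722 genes called after myelin and not untreated, 33 had a called change of the gap. The count of 151 rests on single libraries: it was 6 without E3 untreated replicate 1 and 721 without WT myelin replicate 5, and the fit of all 47 libraries called 0, where 885 had an unadjusted p under 0.05, while that of 38 libraries without Het called 376.

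Of the 69 genes with a more positive gap, 62 were lower in untreated E3. After myelin 18 of the 69 were higher, 10 lower and 41 not called. Abcg1 led them. Atp6v0d2 was at 5.58, 5.13, 7.35 and 6.15 scaled TPM in untreated E3 and 24.7, 26.1, 29.1, 24.1 and 30.2 in untreated WT, a difference of -1.98 ± 0.14, and after myelin at 11.5, 12.3, 14.6 and 11.1 and 18.9, 30.8, 21.6, 30.7 and 23.97 (change of the gap 1.03 ± 0.19, adjusted p = 0.0203). Fabp4 (0.92 ± 0.17), Gpnmb (0.90 ± 0.16), Mylip (0.82 ± 0.13), Psap (0.79 ± 0.14), Ctsl (0.64 ± 0.14) and Soat1 (0.66 ± 0.14, which esterifies cholesterol for storage) were in this class. The fit of all 47 libraries made none of these calls, and whether other settings kept them was not examined. In all, 6 of 45 lysosomal, 4 of 16 efflux and LXR, and 3 of 21 lipid droplet genes had a more positive gap. The signalling adaptor gene Plek (0.98 ± 0.19), the endosomal protein gene Snx13 (1.08 ± 0.26) and the Polycomb gene Rnf2 (1.0 ± 0.24) were lower in untreated E3 and not called after myelin.

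Of the 82 genes with a more negative gap, 61 were lower in E3 after myelin. They included 5 of 15 fibroblast and pericyte markers, such as Col1a2 (-1.07 ± 0.22), Mgp (-1.08 ± 0.25) and Col5a1 (-1.14 ± 0.21), the basement membrane collagen gene Col4a2 (-1.14 ± 0.26), the collagen cross-linking enzyme gene Loxl1 (-1.33 ± 0.27, 17.6 to 20.5 scaled TPM in E3 and 23.8 to 53.7 in WT after myelin), Timp1 (-0.90 ± 0.22) and Actg2 (-0.93 ± 0.19). Krt19, a keratin, and Ybx3, an RNA-binding protein, were higher in untreated E3 (0.97 ± 0.13 and 0.48 ± 0.20), and their gaps changed by -1.25 ± 0.18 and -1.18 ± 0.28. The histone gene Hist1h2ae changed by -1.38 ± 0.34. Summed fibroblast markers, a sum that includes those 5 genes, overlapped between the genotypes only in untreated cultures, and their part was not tested. Fdps was the 1 sterol gene with a more negative gap (-0.62 ± 0.11, limma adjusted p = 0.0194). For Col1a2, Mgp, Col5a1, Timp1, Actg2 and Fdps the fit of all 47 libraries called no change of the gap. Whether other settings kept these calls was not examined.

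**Figure D4:**
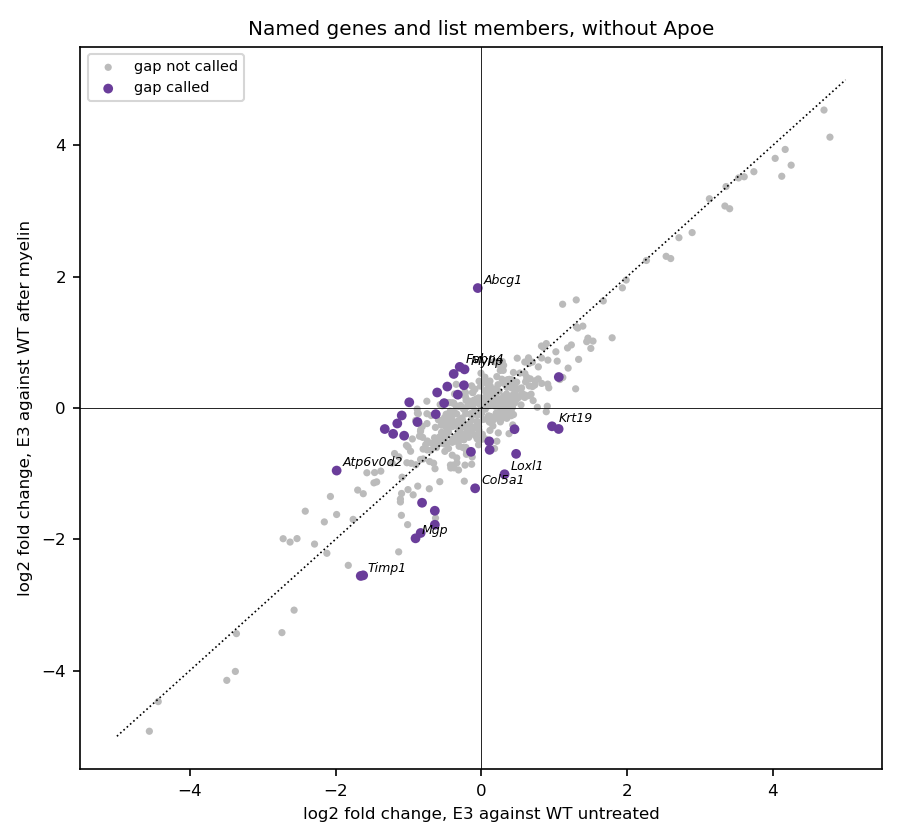
Log2 fold change in E3 against WT after myelin against that in untreated cultures, 1 point per named gene or tested list member without Apoe, with a dotted line where both are equal. Genes whose gap limma called different are purple, and Abcg1 lies at 1.83 after myelin and -0.05 untreated.

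E4 and KO microglia after myelin were set beside E3 against the same WT libraries, in a fit of 38 libraries without Het. As these comparisons share the WT libraries, the values are given side by side only, with counts and medians of lists in E3 from the fit of 18 libraries. Limma called 2341 genes higher (23.2%) and 3154 lower (31.3%) in E4, and 2848 higher (28.3%) and 2883 lower (28.6%) in KO. Between E4 and E3 themselves 596 genes were higher in E4 (5.92%) and 646 lower (6.41%). Of 24 sterol genes 13 were lower in E3, 16 lower and 2 higher in E4, and 1 lower and 17 higher in KO, with medians of -0.42, -0.43 and 0.32. Stard4 was at -0.81 in E3, -1.06 in E4 and 0.53 in KO. Abcg1 was at 1.83 in E3, 2.41 in E4 and 0.96 in KO, and higher in E4 than in E3 (0.58, adjusted p = 0.00157). Gfap was at 3.37 in E3, 4.92 in E4 and -0.79 in KO, with astrocyte markers higher for 10 of 11 in both knock-ins and lower for 9 in KO. Fibroblast markers had medians of -1.32, -2.11 and -3.66.

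Apoc2 was lower in all 3, at -4.47 in E3, -3.77 in E4 and -2.65 in KO, and so were Mmp3 (-4.92 in E3, -5.63 in E4 and -4.84 in KO) and C5ar1 (-2.07 in E3, -2.07 in E4 and -1.16 in KO). Mrc1 was lower in both knock-ins and higher in KO (-1.99 in E3, -2.15 in E4 and 0.55 in KO). Genes of phagocytosis and complement were lower for 14 of 28 in E3 and 17 in E4, and higher for 17 in KO. Inflammatory genes differed between the knock-ins, as 13 of 29 were higher and 4 lower in E4 than in E3. Il1b was at -2.40 in E3, -1.30 in E4 and -2.06 in KO, and its difference between E4 and E3 was 1.10 (adjusted p = 5.28e-05). Tnf was lower in E3 and higher in E4 (-0.53 in E3, 0.87 in E4 and -0.97 in KO, E4 against E3 1.40). Ptgs2 went the other way between the knock-ins (-1.04). Of 24 proliferation genes 10 were lower in E4 than in E3, and 9 of 11 astrocyte markers were higher.

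**Figure D5:**
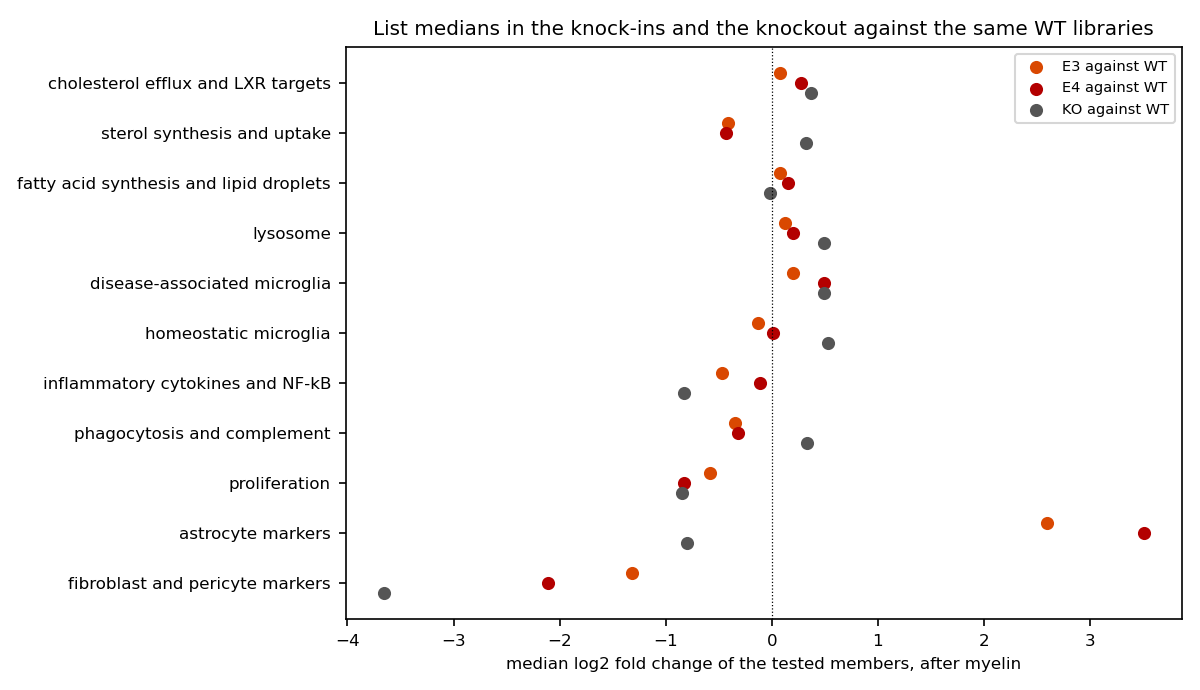
Median log2 fold change after myelin of the tested members of 11 gene lists against the same WT libraries, 1 point per list and genotype (E3, E4, KO). Sterol genes lie at -0.42 in E3 and -0.43 in E4 but 0.32 in KO, and astrocyte markers at 2.60, 3.51 and -0.80.

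Nnt, a mitochondrial transhydrogenase that is deleted in part in C57BL/6J mice but intact in several other C57BL/6 stocks, is listed under a pair of identifiers. ENSMUSG00000025453.18 was at 5.12, 1.97, 9.27 and 2.20 scaled TPM in E3 and 5.04, 6.48, 6.28, 7.10 and 6.96 in WT after myelin, with E3 libraries on either side of the WT range (-0.57 ± 0.36, adjusted p = 0.237). ENSMUSG00000116207.1 was at 6.95, 9.32, 8.18 and 13.8 and 10.1, 6.74, 7.09, 8.10 and 9.66 (0.15 ± 0.18), and reads of the pair may be split by the counting. Neither was called after myelin. In untreated cultures the first was lower in E3 (-1.03 ± 0.36, adjusted p = 0.0206), with overlapping groups.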

How the data were processed

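The series holds 47 RNA-seq libraries of polyadenylated RNA from cultured microglia in 10 groups, and 18 libraries carry this comparison. The authors deposited TPM (transcript abundance relative to the library total) for 53697 genes. The submitters' processing notes name Salmon 0.13.1, limma 3.40.6 and mm10, without their roles. TPM keep no read depth, so no counting interval could be given. Each column was matched to a library by name, and 0 columns were left unmapped.

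TPM were rescaled to a total of 1000000 over protein-coding genes without mt- genes, then by a trimmed mean of log ratios (30% of ratios and 5% of levels trimmed). Protein-coding and lincRNA genes at 5 or more scaled TPM in at least 4 of the 18 libraries were tested on log2(scaled TPM + 1), a scale that understates changes of low genes. Limma 3.58.1 (R 4.3.3, with data.table in version 1.17.8) fitted a mean per group with an intensity trend and no library weights, two-sided, with Benjamini-Hochberg adjustment over all 10075 tested genes and a threshold of 0.05. E4 and KO were fitted with 38 libraries of 8 groups. The code was tested on simulated data. Gene positions came from GENCODE M21 and promoter windows from RefSeq.

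Genes fixed by rule were Apoe, Nnt, the 10 largest differences each way among coding genes at 20 or more scaled TPM without overlap, up to 4 called members of each list with the largest differences, 5 changes of the gap each way, and up to 5 called genes within 2 Mb of Apoe. Other list members are examples chosen after their values were seen, and some list members are not reported here by name. The comparison, its lists and its tests were chosen with earlier results of these data known. Alternatives were other scalings, pseudocounts and filters, library weights, a replicate block, other sets of libraries and leaving out each library. The coding total without Apoe was added after seeing the data.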

Additional observations from a re-analysis of the deposited data

Results flagged for a closer look

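In 212 groups of 4 or 5 libraries looked at for the named genes, 8 had a library far from the others, where chance alone gives about 1 in 20. After myelin, E3 replicate 3 was such a library for Ctsc (313 scaled TPM, others 218 to 224), Gstm1 (297, others 394 to 412), Tubb3 (19.7, others 27.1 to 28.6) and Snx13 (40.5, others at most 26.5). E3 replicate 2 was one for Lcn2 (571, others 365 to 386) and Cdh5 (4.78, others 2.78 to 2.93). WT replicate 2 was low for Gclm (27.5, others 36.7 to 40.5), and WT replicate 3 for Plek (68.6, others up to 114).

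The gap between E3 and WT differed between myelin and untreated cultures for 14 named genes by the interaction test. It was more positive after myelin for Abcg1 by 1.88 on the log2 scale, Snx13 by 1.08, Atp6v0d2 by 1.03, Rnf2 by 1.0 and Plek by 0.978. It was more negative for Hist1h2ae at -1.38, Loxl1 at -1.33, Krt19 at -1.25, Ybx3 at -1.18, Col4a2 at -1.14, Mgp at -1.08, Col1a2 at -1.07, Actg2 at -0.928 and Timp1 at -0.904. Over 28 other settings the change of the gap was called in 27 for Abcg1, 26 for Krt19, 20 for Atp6v0d2, 20 for Plek, 19 for Loxl1, 14 for Ybx3, 12 for Rnf2, 12 for Hist1h2ae, 11 for Col4a2 and 10 for Snx13, and the sign of these 10 did not turn in any of them. Mgp, Col1a2, Actg2 and Timp1 were not followed over these settings. E3 replicate 3 after myelin, far from the others for Snx13, moves the fold change of that gene from 0.09 to -0.07 when left out.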

How the results depend on the processing

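Of 111 named genes 103 were called after myelin, and 80 were called in every setting. The count of genes after myelin was 2034 with a filter at 20 scaled TPM (fewer genes tested) and 1791 in the fit of 47 libraries, and 2739 to 3288 leaving out each library. In untreated cultures these were 3458, 3651 and 4848 to 5723. The change of the gap was called for 73 genes with the coding total alone, 81 with the coding total without Apoe (chosen after seeing the data), 5 with no filter, 265 with the filter at 20, 0 in the fit of 47 libraries, 376 in that of 38 and 730 with library weights. Leaving out each library gave 6 to 721. The fit of 47 libraries called 3467 genes for E4 and 3780 for KO against WT, and 400 for E4 against E3. Leaving out each library gave 5090 to 5530, 5224 to 5780 and 849 to 1343. The difference in Apoe was -9.07 to -8.67 (exact permutation p up to 0.0286), and that in coding share -6.26 to -1.74 percentage points (exact permutation p 0.0893 to 0.589). The share of calls that were higher was 53.3% with no filter. The gene Snx13 ENSMUSG00000020590.16 (0.09, not called) was at -0.0472 with library weights, and at -0.0727 without WT myelin replicate 3 to 0.209 without WT myelin replicate 5. Nnt ENSMUSG00000116207.1 (0.15, not called) was at -0.0215 without E3 myelin replicate 4 to 0.277 without E3 myelin replicate 1. The causes were not tested.

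Labels number the replicates alike, and whether the numbers pair the samples was not settled. Deviations of same-numbered E3 and WT libraries after myelin correlated at -0.413 to 0.124, and 1 of 4 correlated best with its own number. Untreated, these correlated at -0.0985 to 0.219, and 3 of 4 were best with their own number. Between myelin and untreated libraries of a genotype this held for 1 of 4 in E3 and 2 of 5 in WT. With a replicate block limma called 3130 genes after myelin, 5298 untreated and 171 changes of the gap, and 5599, 5805 and 1206 for E4 against WT, KO against WT and E4 against E3.

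Without 1 library the count of changed gaps was 14 without E3 myelin replicate 3, 6 without E3 untreated replicate 1, 17 without replicate 2, 377 without replicate 3 and 7 without replicate 4 of that group. It was 10 without WT myelin replicate 1, 268 without replicate 2, 53 without replicate 3, 371 without replicate 4 and 721 without replicate 5. It was 24 without WT untreated replicate 2, 81 without replicate 3, 43 without replicate 4 and 7 without replicate 5.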
